A study of Arabidopsis thaliana with 18 samples.

Results

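This account concerns the leaf blade of Arabidopsis thaliana and compares a far-red pulse followed by darkness with darkness alone. The members are the 3 arrays labelled leaf blade in FRD and the 3 labelled leaf blade in D, 6 of the 18 arrays of the study, and each of the 22746 probe sets that are not manufacturer's controls was tested, of 22810 in the file. All plants were wild type, had grown for 19 days in continuous white light at 22 °C, and gave RNA from rosette leaves 3 and 4. D plants then spent 2 h in darkness. FRD plants received a pulse of far-red light and then spent 2 h in darkness, and the blades kept in white light for 2 h (WL, 3 arrays) serve as background. Petioles of the same 3 treatments make up the other 9 arrays, and the series description names the 3 replicates of a group as independent biological replicates. The fluence of the pulse and the accession of the plants are not given in the sources used here.

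Phytochromes are red and far-red light receptors. Far-red light turns them to their inactive form, which releases PIF transcription factors to act on genes of shade avoidance, among them genes of auxin synthesis and auxin response, and plants in real shade receive light rich in far-red. A pulse given just before darkness removes most of the active phytochrome, whereas in plants moved straight to darkness the active form made in the light persists for a time. Auxin is known to be made in leaf blades under shade and to act in petioles and stems, which elongate.

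Each value gives the signal of a probe set relative to its median in the 3 WL arrays of that tissue, so a gene has no absolute level here, and genes cannot be ranked by abundance. For the same reason the blade label could not be checked against markers of the tissue. Of 39 marker genes of guard cells, trichomes, vessels, epidermis, meristem and root, 3 have a named probe set, and none was called between D and FRD in limma, where 0 had an unadjusted p under 0.05: FMA of guard cells stood at -0.04 ± 0.19 on the log2 scale, TRY of trichomes at -0.55 ± 0.70 and CLV3 of the shoot meristem at -1.08 ± 0.51. In bulk tissue, fewer cells of a type and less RNA per cell cannot be told apart. The D and FRD arrays did not overlap in 4 of the 64 manufacturer's controls, against 10.9% of the probe sets tested. The 25S ribosomal RNA control read 1.69, 2.22 and 2.01 in D and 1.42, 1.04 and 1.37 in FRD. One 5′ probe set of actin stood at -0.61 on the log2 scale in FRD against D. Its 3′ counterpart stood at 0.11 and its middle one at 0.03, both with overlapping arrays. Another 5′ probe set of actin stood at -0.09, also with overlapping arrays. The 5′ probe sets of GAPDH and ubiquitin ran from -0.14 to -0.004, all with overlapping arrays. The remaining controls without overlap were bacterial, PheX-3 at -1.11 and lys-M at 2.66. The part of these differences in the results was not tested.

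The pulse raised more blade probe sets than it lowered. At an adjusted p under 0.05 in limma, a linear model with moderated variances, 148 probe sets were called (0.651% of those tested), of which 127 rose (0.558%) and 21 fell (0.0923%). All 148 had 3 FRD arrays wholly above or wholly below the 3 D arrays, a separation seen in 10.9% of all probe sets tested. The same arrays gave the calls, so this separation lends them no further weight. Raised probe sets had a median log2 fold change of 1.63, and 48 of them rose by 2 log2 units or more. Lowered ones had a median of -1.19, and 5 of them fell by 2 log2 units or more. The median over all probe sets was -0.02.

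The count rests in part on pooling the spread over all 18 arrays and on single libraries: it was 92 (81 raised, 11 lowered) without blade FRD replicate 2, 68 in a fit of the 9 blade arrays and 10 in a fit of the 6 compared arrays. Quantile normalization left 32 calls, of which 100% were rises, against 85.8% of the 148.

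**Figure D1:**
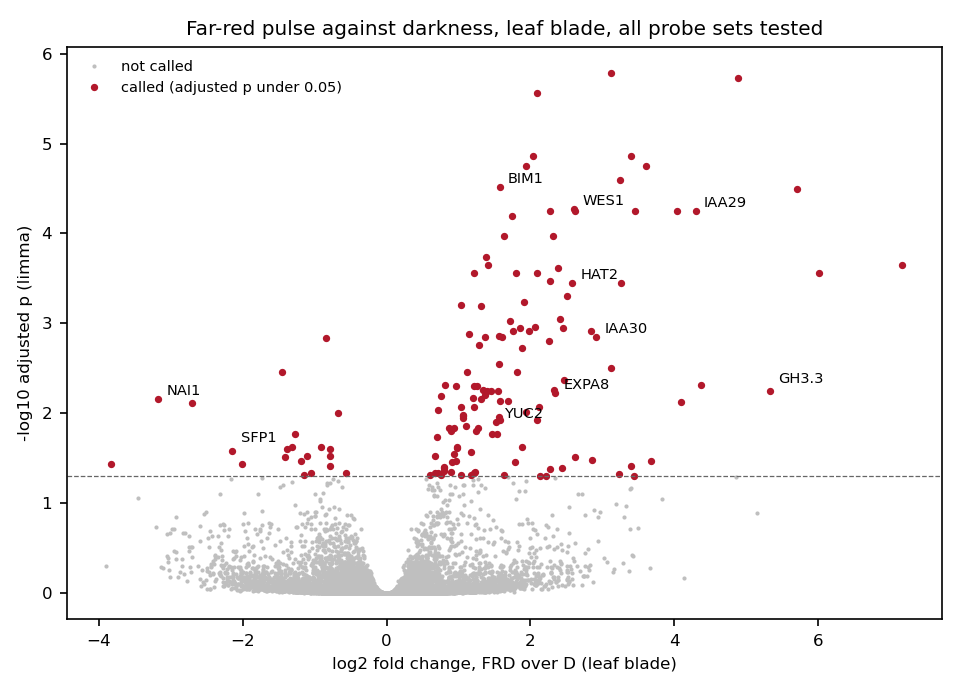
Each point is 1 of 22746 probe sets, with the log2 fold change of FRD over D in the blade on the x axis and -log10 of the limma adjusted p on the y axis; red points passed an adjusted p of 0.05 (dashed line). The red points lie mostly to the right, with 127 raised and 21 lowered, and the 10 called genes that have a symbol are named.

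The platform annotation and RefSeq name 1 gene for 58 of the 148 called probe sets, 45 raised and 13 lowered. Of these genes, 10 carry a symbol and 48 are known only by a locus code, for which the tables used here give no function. RefSeq lists 57 of the 58 as protein-coding and 1, AT1G24640, as a pseudogene. The other 90 called probe sets have no gene in the annotation table. Of 135 genes in the lists of light, hormone, wall, metabolic and marker genes that have a named probe set, 9 were called, 8 raised and 1 lowered. Among all probe sets with 1 gene, 0.429% were called. The lists were chosen with earlier results of these data known, so no result is drawn from the share called in them. SFP1, the remaining gene with a symbol, is in no list.

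Auxin-response genes stood at the top of the named rises. GH3.3 (AT2G23170) encodes an amido synthetase that conjugates auxin with amino acids, and auxin itself induces it. Its ratio to white light was 7.5, 9.81 and 28.6 in the 3 D arrays and 326, 452 and 930 in the 3 FRD arrays, while the WL arrays read 0.581, 1 and 8.12. Every FRD array thus exceeded every D array more than 10 times over, and the D and WL arrays overlapped. The rise over D was 5.33 ± 0.82 log2 units (SE), or 40.2-fold (limma adjusted p = 0.0057). The call held without any single array of the compared groups but was lost with a variance trend (adjusted p = 0.754), with quantile normalization (adjusted p = 0.686) and in the 9 blade arrays alone (adjusted p = 0.146).

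WES1 (AT4G27260, also GH3.5), a related enzyme, read 1.5, 1.24 and 1.26 in D and 5.78, 10.2 and 8.93 in FRD. The groups were well apart, and D stayed close to white light. The rise was 2.6 ± 0.23 log2 units, or 6.08-fold (limma adjusted p = 5.35e-05). All 5 measured GH3 genes had a positive log2 fold change, with a median of 2.38, and 2 were called. Over all 22746 probe sets tested 10569 were positive, and of those with 1 gene 0.429% were called. The list was chosen with earlier results of these data known, so no result is drawn from these counts. GH3.17 read 0.455, 0.31 and 0.551 in D against 0.742, 4.17 and 3.28 in FRD, a difference of 2.34 ± 0.49 that just missed the threshold (adjusted p = 0.052) and whose lowest FRD array, replicate 1, lay near the D arrays. It passed when that array was left out (adjusted p = 0.000282). That array was picked for lying near D, so this fit lends the difference no weight. GH3.1 stood at 2.38 ± 1.18 with overlapping arrays, and GH3.9 at 0.35 ± 0.30.

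The Aux/IAA family encodes repressors of auxin response, many of which auxin induces. IAA29 (AT4G32280) read 0.435, 0.612 and 1.03 in D and 11.2, 14.8 and 12.6 in FRD. Its 3 WL arrays lay between 0.939 and 1.02, so the FRD arrays stood apart from both other groups. It rose by 4.3 ± 0.38 log2 units, or 19.7-fold (limma adjusted p = 5.63e-05).

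IAA30 (AT3G62100) read 2.19, 2.24 and 1.79 in D and 11.7, 24.1 and 13.2 in FRD. Again no arrays overlapped, and the highest was FRD replicate 2. The rise was 2.91 ± 0.38, or 7.53-fold (limma adjusted p = 0.00141). The family did not move as one: 2 of its 7 measured genes were called, 3 were positive, and the median was -0.21. The 5 others, none of them called, ran from IAA31 at -1.07 ± 1.15 to IAA34 at 0.39 ± 0.41, with IAA18 at -0.34 ± 0.16 and IAA33 at -0.41 ± 0.48 between them.

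Among genes that make or conjugate auxin, 1 of 6 was called. YUC2 (AT4G13260), a flavin monooxygenase that makes auxin, read 0.699, 1.34 and 1.15 in D and 2.53, 3.113 and 3.21 in FRD. The D arrays lay around the white-light level and the FRD arrays above it, without overlap. It rose by 1.52 ± 0.26 (limma adjusted p = 0.0125), a call lost without FRD replicate 2 (adjusted p = 0.0684) and without FRD replicate 3 (adjusted p = 0.0566). Its relatives YUC4 and YUC6 stood at 1.79 ± 1.2 and -2.17 ± 0.85, each with overlapping arrays and neither called. IAGLU, which attaches glucose to auxin, had separate groups, as did 10.9% of all probe sets, but missed the threshold at 1.35 ± 0.38 (adjusted p = 0.197).

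HAT2 (AT5G47370) is a homeodomain-leucine zipper gene of class II, a family known for fast induction by shade. It read 0.604, 0.713 and 1.47 in D and 5, 4.91 and 5.53 in FRD, the FRD arrays being close together and all above the highest D array, replicate 3. It rose by 2.58 ± 0.29, or 5.99-fold (limma adjusted p = 0.000355), and is the single member of its list with a named probe set.

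BIM1 (AT5G08130) encodes a basic helix-loop-helix partner of the brassinosteroid factor BES1. It read 0.75, 0.727 and 0.893 in D and 2.39, 2.05 and 2.62 in FRD. The spread within each group was small and the groups were far apart. The rise was 1.57 ± 0.13, or 2.98-fold, with the lowest adjusted p of the genes with a symbol (3.06e-05 in limma). It was the 1 called of 4 measured brassinosteroid genes, and the list median was 0.30.

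The list of phytochrome and light signalling holds 55 symbols, most of them without a named probe set. Among its 3 measured genes none was called by limma, and 1 had an unadjusted p under 0.05, as did 7.57% of all probe sets. That gene was FHL, which helps phytochrome A enter the nucleus. FHL read 1.41, 1.36 and 0.827 in D and 2.88, 2.02 and 5.21 in FRD, separate groups whose difference of 1.42 ± 0.36 did not pass (adjusted p = 0.137). Such separation was seen in 10.9% of all probe sets. HYH, a relative of the light-response factor HY5, stood at -0.13 ± 0.29. Among the hormone lists, no gene of gibberellin (4 measured of 44 symbols), ethylene (1 of 37), cytokinin (2 of 38), abscisic acid (2 of 31) or auxin transport (2 of 19) was called by limma. Most of these symbols have no named probe set, and 0.429% of all probe sets with 1 gene were called. The absence of calls therefore says little about these pathways. At an unadjusted p under 0.05 there was 1 gibberellin gene and 1 ethylene gene, the factor EIN3, at 0.34 ± 0.10 (adjusted p = 0.196).

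**Figure D2:**
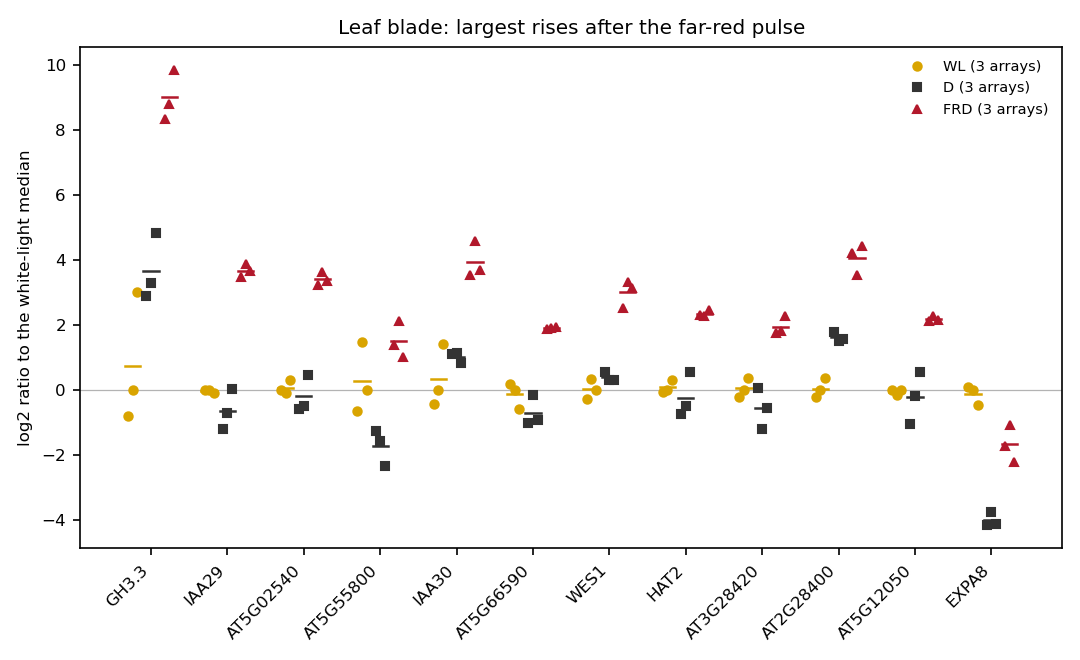
The 12 largest rises among called probe sets with 1 gene are shown as log2 ratio to the white-light median on the y axis, with 3 WL, 3 D and 3 FRD blade arrays per gene and short bars for group means. In all 12 the FRD arrays lie above the D arrays; for EXPA8 both lie below white light.

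EXPA8 (AT2G40610), an expansin that loosens the cell wall, stood below white light in both dark groups. It read 0.0565, 0.0755 and 0.0583 in D, 0.308, 0.482 and 0.218 in FRD, and 1.08, 1 and 0.739 in WL. All 3 groups were apart, with FRD between the other two. FRD exceeded D by 2.34 ± 0.36 (limma adjusted p = 0.00603), D lay below WL by -3.88 ± 0.36 and FRD lay below WL by -1.54 ± 0.36 (adjusted p = 0.0143); these 3 comparisons share arrays. The call depends on very low ratios. With ratios floored at their 1st percentile of 0.131, the difference was 1.28 and was no longer called (adjusted p = 0.193).

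No other wall gene of the lists was called by limma. EXPA8 was the 1 called of 18 expansin genes, 8 of which were positive, with a list median of -0.09. Of the 18, 4 had an unadjusted p under 0.05, against 7.57% of all probe sets. Separate groups were seen in 4 of them, against 10.9% of all probe sets. EXPA20 stood at 1.02 ± 0.39 and EXPA4 at 0.71 ± 0.24, both with separate groups, and EXLA1 stood at -1.72 ± 0.77 with overlapping arrays. None of 10 xyloglucan endotransglucosylase genes, whose enzymes cut and rejoin wall xyloglucan, was called by limma, and 2 had an unadjusted p under 0.05, against 7.57% of all probe sets. XTH33 stood at 1.57 ± 0.69 with separate groups, which 10.9% of all probe sets have. Of 19 measured genes for cellulose, pectin and other wall components, from a list of 158 symbols, none was called and 0 had an unadjusted p under 0.05.

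The few listed genes of the photosynthetic and pigment machinery that have a named probe set showed small differences between the groups. The 4 antenna and Rubisco activase genes ran from -0.11 to 0.02 and the 5 tetrapyrrole genes from -0.15 to 0.26, none was called by limma and 0 had an unadjusted p under 0.05. LHCB4.1, an antenna protein of photosystem II, stood at -0.08 ± 0.15. All 6 genes of dark and starvation response were negative, from -0.55 to -0.14, with none called and 0 at an unadjusted p under 0.05. Of the whole set of probe sets tested, 10569 were positive. The 6 phenylpropanoid and flavonoid genes had a median of -0.01, the 9 leaf-shape genes -0.04 and the 10 genes of touch, calcium and wounding -0.13, and no gene of these lists was called by limma. The 1 of them with an unadjusted p under 0.05 was WRKY22, of the last list, at 0.90 ± 0.25 (adjusted p = 0.196). Its groups were separate, as in 10.9% of all probe sets. GI, a clock gene, stood at -0.75 ± 0.37 with overlapping arrays.

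**Figure D3:**
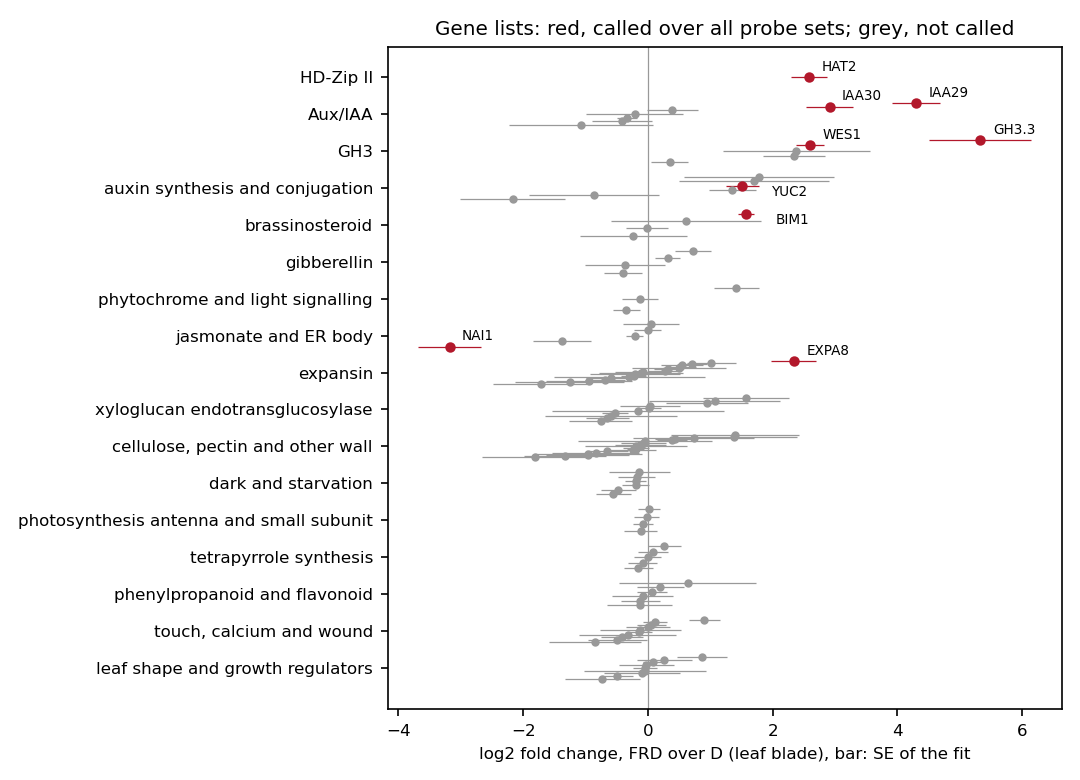
Each point is a gene of the list named on the y axis, placed at its log2 fold change of FRD over D with the SE of the fit; red points were called over all probe sets. The 8 raised list genes are auxin, HD-Zip II, brassinosteroid and expansin genes, and the 1 lowered gene is NAI1.

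The largest fall of a gene with a symbol was that of NAI1 (AT2G22770), a basic helix-loop-helix factor required for endoplasmic reticulum bodies, compartments that store a beta-glucosidase used in defence. It read 4.64, 3.89 and 4.73 in D, 0.528, 0.321 and 0.679 in FRD, and 1.77, 1 and 0.839 in WL. The D arrays stood above both other groups, and the FRD arrays lay below the WL arrays without overlap. FRD was lower than D by 9.06-fold (-3.18 ± 0.50, limma adjusted p = 0.00694). D exceeded WL by 1.95 ± 0.50 (adjusted p = 0.0234) in a comparison that called 11.2% of all probe sets, while FRD against WL (11.2% called) stood at -1.23 ± 0.50 (adjusted p = 0.148); the 3 comparisons share arrays. Quantile normalization ended the call (-2.65, adjusted p = 0.124).

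Of the genes that act with it, NAI2, a structural protein of these bodies, read 2.56, 3.41 and 1.54 in D and 1.42, 0.779 and 0.706 in FRD. The groups were separate, as in 10.9% of all probe sets, but the difference of -1.37 ± 0.46 was not called (adjusted p = 0.38). PYK10, the beta-glucosidase, stood at 0.05 ± 0.45, and the jasmonate factors MYC3 and MYC4 at -0.21 ± 0.13 and -0.00 ± 0.22. NAI1 was the 1 called of the 5 genes in this list.

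SFP1 (AT5G27350), of a sugar transporter family, read 1.95, 1.36 and 1.32 in D and 0.811, 0.546 and 0.564 in FRD. All D arrays were above the white-light median and all FRD arrays below it. It fell by 1.27 ± 0.23 log2 units (limma adjusted p = 0.0169). The call was lost without D replicate 1 (adjusted p = 0.0869), without FRD replicate 2 (adjusted p = 0.1) and without FRD replicate 3 (adjusted p = 0.0725).

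Among locus codes, AT5G02540 had the largest rise, with 0.68, 0.72 and 1.4 in D and 9.49, 12.5 and 10.4 in FRD. The FRD arrays were all far above the others, and the rise was 3.6 ± 0.28, or 12.2-fold (limma adjusted p = 1.78e-05). AT5G66590 (2.62 ± 0.23), AT3G28420 (2.51 ± 0.29), AT2G28400 (2.45 ± 0.31) and AT5G12050 (2.41 ± 0.30) rose too, with adjusted p from 5.63e-05 to 0.00112 and calls that held without any single array. AT2G28400 read 3.44, 2.9 and 2.98 in D and 18.7, 11.8 and 21.9 in FRD, so both dark groups stood above white light. AT5G55800 had the next largest rise after AT5G02540, 3.23 ± 0.67 at an adjusted p of 0.0469, but in none of the 6 fits without a single array was it called (adjusted p from 0.076 without FRD replicate 3 to 0.218 without FRD replicate 2).

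The falls known by locus code were less stable. AT1G24640 read 0.979, 0.986 and 0.635 in D and 0.141, 0.116 and 0.135 in FRD, with tight FRD arrays far below D. It fell by 2.71 ± 0.43 (limma adjusted p = 0.00769) and stayed called without any single array, although flooring all ratios at 0.553, their 10th percentile, left a difference of -0.62 that was not called. AT5G09430 fell by 3.83 ± 0.76 (adjusted p = 0.0363), from 1.95, 2.23 and 0.931 in D to 0.0526, 0.166 and 0.159 in FRD. That call held without D replicate 3 (adjusted p = 0.0385) and was lost in the other 5 such fits, with adjusted p from 0.0667 to 0.146.

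The 8 next falls known by locus code were those of AT5G62360 (-2.15 ± 0.40), AT4G23030 (-2.01 ± 0.40), AT3G06070 (-1.42 ± 0.27), AT1G61890 (-1.32 ± 0.24), AT3G44450 (-1.19 ± 0.23), AT5G03380 (-1.11 ± 0.21), AT5G61340 (-1.05 ± 0.22) and AT5G62350 (-0.67 ± 0.11), with adjusted p from 0.00992 to 0.0459. Each lost its call in at least 2 of the 6 fits without a single array, among them the fit without FRD replicate 1, that without FRD replicate 2, or both; the highest adjusted p in these fits, 0.218, was that of AT5G61340 without FRD replicate 2. AT5G54170, outside the naming rule, had the smallest called fall of a named gene, at -0.56 ± 0.11 (adjusted p = 0.0459). In none of the 6 fits without a single array was AT5G54170 called. The falls differed in where D stood. In AT1G61890 D was above white light by 1.33 ± 0.24 and FRD stood at 0.01 ± 0.24, whereas in AT3G44450 D was already below white light by -2.01 ± 0.23 and FRD lower still at -3.2 ± 0.23; these comparisons share arrays.

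**Figure D4:**
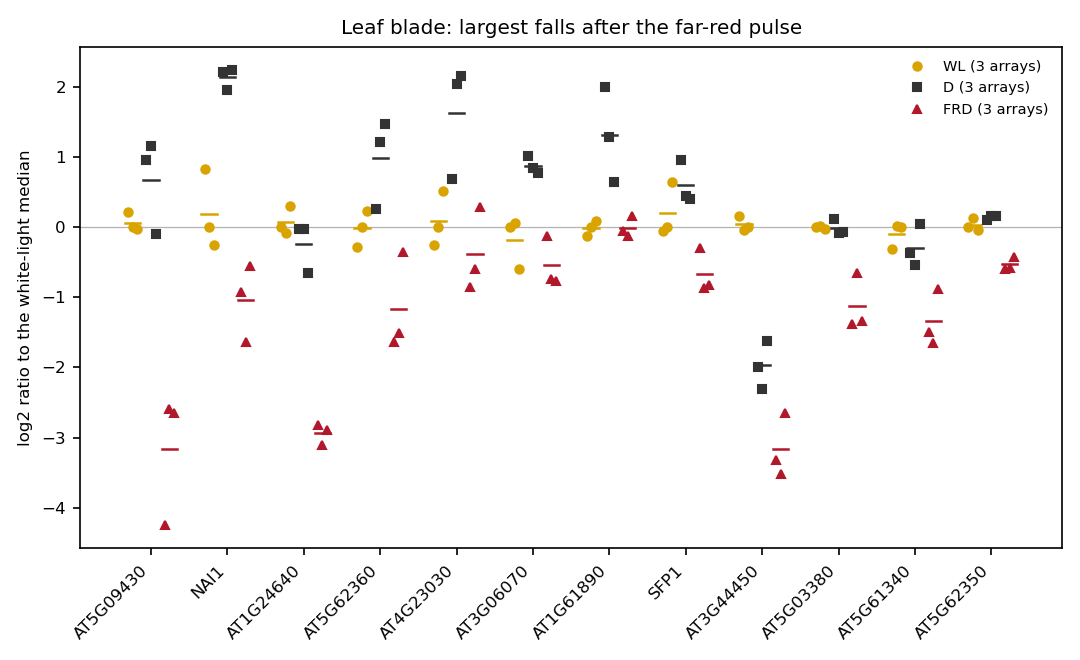
The 12 largest falls among called probe sets with 1 gene are shown as in the plot of the largest rises, as log2 ratio to the white-light median, with group means as short bars. The FRD arrays lie below the D arrays in all 12, and NAI1, AT4G23030 and AT1G61890 have D means more than 1 log2 unit above white light.

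A few genes fell outside the naming rule and were chosen after their values were seen. AT5G48900 was the single called probe set with 1 gene that was called under every alternative run. It read 0.344, 0.405 and 0.394 in D, 1.71, 1.85 and 1.95 in FRD, and 1, 0.989 and 1.04 in WL. D lay below and FRD above white light, with no overlap, and the rise was 2.27 ± 0.20 (limma adjusted p = 5.63e-05). AT1G21050 (2.07 ± 0.26) and AT1G21060 (1.31 ± 0.21) are neighbours in RefSeq and both rose, and the neighbours AT5G62350 and AT5G62360 both fell. These were the 2 cases (3.7%) among 54 neighbouring pairs with at least 1 called gene in which both were called. In all, 5878 neighbouring pairs were tested, and 0.429% of probe sets with 1 gene were called. Whether neighbours were called together more often than other genes was not tested. AT4G16770 rose by 1.98 ± 0.25 (limma adjusted p = 0.00121). It lies next to HB-2, also called ATHB2, a class II homeodomain gene known for its induction by shade. HB-2 has no named probe set here, and a link with AT4G16770 was not tested.

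The probe sets with no gene in the annotation table held the largest rises of all. The probe set 264323_at read 1.3, 0.547 and 5.7 in D and 234, 221 and 235 in FRD. The FRD arrays were nearly identical and the D arrays scattered. It rose by 7.17 ± 0.74, or 144-fold (limma adjusted p = 0.000223), and 250662_at rose by 6.02 ± 0.65 (adjusted p = 0.000273). The largest falls in this group were smaller, with 263128_at at -1.46 ± 0.21 (adjusted p = 0.0035) and 245304_at at -1.39 ± 0.26 (adjusted p = 0.0247).

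Against white light, the raised and lowered probe sets took opposite courses in the blade. The 127 raised probe sets had a median log2 ratio of -0.37 in D and 1.23 in FRD. For the 21 lowered ones the medians were 0.60 in D and -1.13 in FRD. These medians describe members that were chosen by the difference between D and FRD, and no test is drawn from them.

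The same comparison in petioles uses other arrays and asks whether the blade genes respond there too. It called 249 probe sets (1.09%), and its arrays enter the spread estimate of the same fit. Of the 127 probe sets raised in the blade, 105 (82.7%) had all petiole FRD arrays above all petiole D arrays, against 7.03% of all probe sets. Of the 21 lowered in the blade, 8 (38.1%) had all petiole FRD arrays below all petiole D arrays, against 6.85% of all probe sets. The median petiole change was 1.12 for the raised and -0.37 for the lowered set. The petiole change was the smaller in size for 96 of the raised and 19 of the lowered probe sets, but the blade values chose these members, so that a smaller value elsewhere is no finding.

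Gene by gene, the auxin-response rises were present in both tissues. GH3.3 rose by 4.99 ± 0.82 in petioles and IAA29 by 4.22 ± 0.38, values within 1 SE of those in blades. WES1 rose by 3.95 ± 0.23 and IAA30 by 4.12 ± 0.38, larger in petioles by 1.35 ± 0.32 and 1.21 ± 0.54, and neither difference was called (limma adjusted p = 0.391 and 0.924). HAT2 rose by 2.2 ± 0.29, EXPA8 by 1.66 ± 0.36 and BIM1 by 1.1 ± 0.13. YUC2 stood at 0.37 ± 0.26 in petioles and was not called there (adjusted p = 0.844), and its difference between tissues was not called either (-1.14 ± 0.37, adjusted p = 0.682). NAI1 stood at -1.1 ± 0.50 with overlapping petiole arrays, a difference from the blade of 2.08 ± 0.71 (adjusted p = 0.728).

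The test of the difference itself called 0 probe sets (0%) in limma, and 1197 (5.26%) had an unadjusted p under 0.05. The lowest adjusted p was that of AT5G02540, whose petiole arrays read 1.23, 1.34 and 2.26 in D and 2.47, 2.14 and 3.05 in FRD. Those groups overlapped, while the blade groups were far apart. Its petiole change was 0.71 ± 0.28, lower than the blade change by -2.90 ± 0.39 (adjusted p = 0.0605). Without blade D replicate 3 the test called 18 probe sets, 12 with a higher and 6 with a lower change in petioles. AT1G24640 stood at 0.21 ± 0.43 in petioles (difference 2.92 ± 0.61, adjusted p = 0.307) and AT5G55800 at 0.08 ± 0.67 (difference -3.15, adjusted p = 0.643).

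**Figure D5:**
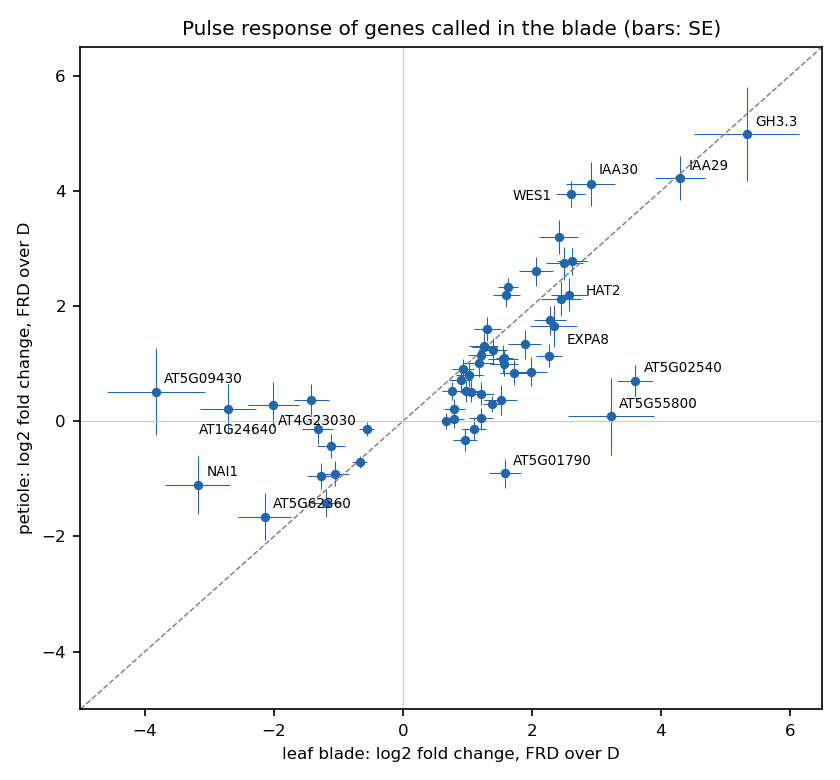
The 58 genes called in the blade are placed by their log2 fold change of FRD over D in the blade (x axis) and in the petiole (y axis), with SE bars from the fit; the dashed line marks equal changes. GH3.3 and IAA29 lie on the line within their SE, WES1 and IAA30 above it, and AT5G02540, AT5G55800 and AT5G01790 well below it.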

How the data were processed

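RNA of 18 samples was labelled with biotin for Affymetrix Arabidopsis arrays, per the labels' protocols. The deposited values are linear ratios. Each of the 22810 probe sets has a white-light median of exactly 1 in either tissue, which the values show and no header or label states. Summarization and scaling before that division are not given in the sources used here. All 64 manufacturer's controls were omitted, and 3 missing values, all in petiole arrays, were dropped from the fit of their probe sets.

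Log2 ratios were fitted with limma 3.58.1 (R 4.3.3) with 1 mean for each of 6 groups over all 18 arrays, empirical Bayes moderation and 12 residual degrees of freedom. Benjamini-Hochberg adjustment ran over 22746 probe sets, tests were two-sided, and calls needed an adjusted p under 0.05. The procedure was tested on simulated data. Errors beside differences are SEs of the fit, log2 values have 2 decimals with a final 0 sometimes dropped, and the number of arrays limits precision. Without levels, signal over background is unknown.

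Of the probe sets tested, 13513 have 1 gene in the platform annotation, 503 several (not named) and 8730 none in that table; 13436 matched RefSeq (TAIR10.1), and 1580 carry a symbol. The array files name no genome build, so no coordinates are given. The 32 gene lists were matched by symbol; 3 genes that share a symbol with an intended gene (AT2G43570, AT1G80820 and AT5G14780) were left out, and 6 lists had no measured gene. A gene with several probe sets is represented by the least variable one (residual SD).

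Named genes are all called genes with a symbol, the 12 largest rises and 12 largest falls among called 1-gene probe sets with separate groups, list members called or up to 6 per list by size, 9 well-known shade genes where named, and up to 2 rises and 2 falls by probe set ID. Members and lists were chosen with earlier results of these data known. Alternatives covered the arrays fitted, the replicate block, scaling between arrays, floors and a pseudocount on low ratios, the variance model and each compared array left out.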

Additional observations from a re-analysis of the deposited data

Results flagged for a closer look

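AT5G01790 moved in opposite directions in the tissues. In blades it read 0.217, 0.141 and 0.217 in D and 0.409, 0.839 and 0.522 in FRD, a rise of 1.58 ± 0.25 (limma adjusted p = 0.00739), and in petioles 0.39, 0.425 and 0.274 in D and 0.176, 0.209 and 0.188 in FRD, a change of -0.91 ± 0.25 that was not called. Petiole minus blade was -2.49 ± 0.36 (adjusted p = 0.0621). The probe set 264511_at did likewise, with a blade rise of 1.88 ± 0.35 (adjusted p = 0.0235), petiole values from 0.83 to 0.921 in D and from 0.627 to 0.644 in FRD, and a difference of -2.34 ± 0.49 (adjusted p = 0.307). Neither difference passed the test.

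The 25S ribosomal RNA control, outside the genes compared, had a mean log2 ratio to white light of 0.97 ± 0.20 (SD, n = 3) in blade D and 0.34 ± 0.25 in blade FRD, against WL ratios of 1.06, 1 and 0.796.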

How the results depend on the processing

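The 148 calls became 10 (9 of them among the 148) when only the 6 compared arrays were fitted, 68 (60 among the 148) in the 9 blade arrays and 32 (all among the 148) after quantile normalization. Leaving out 1 array gave 92 to 205, and 79 of the 148 were called in all 6 such fits; 86 of the 148 remained without blade FRD replicate 2. The share of rises was 74.3% without FRD replicate 3 and 76.6% without D replicate 3. The 9 called list genes became 0 in the 6 arrays and 5 after quantile normalization, and 8 to 10 without 1 array. The difference between tissues called 0 probe sets, 2 with a floor at the 10th percentile, 3 with a pseudocount there, 3 with array weights, 1 with the replicate block and 0 to 18 without 1 array. The fits of fewer arrays have fewer residual degrees of freedom by construction; for the other changes the cause was not tested. No named gene reversed. The other scalings, the floors, the pseudocount, the variance trend and array weights gave 144 to 172 calls, and 119 calls were at least 2-fold. Of the 119 genes the naming rule takes, uncalled list members included, 89 kept their side of the threshold in the 6 compared arrays, 99 after quantile normalization and 118 with array weights.

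The replicate numbers are shared by all groups. Deviations of same-numbered D and FRD arrays correlated at 0.0353, 0.0691 and 0.149 across probe sets, and the numbers were not taken as pairs. Replicate 3 was the exception among the arrays themselves. D replicate 3 and FRD replicate 3 correlated at 0.559, above the highest correlation within a group, 0.508. They were the 2 of 6 arrays that correlated best with their own number. Something shared by these arrays is therefore not excluded, and its source was not tested. With the replicate block 181 probe sets were called (143 raised, 38 lowered), including 138 of the 148. Since levels are unknown, calls at dim probe sets could not be separated from others.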

Other observations

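Probe sets with no gene in the annotation table were called more often, at 1.03%, than those with 1 gene, at 0.429%. Probe sets whose ID carries a suffix letter, which marks probes shared between transcripts, made up 3 of the 148 calls (2.03%) and 4.66% of those tested. Of the 3 D arrays, replicate 3 lay nearest to the FRD mean in 69 of the 148 called probe sets, replicate 2 in 44 and replicate 1 in 35. The same count was not made over all probe sets, so whether this is particular to the calls is not known. Across probe sets, which are not independent, the 6 arrays correlated at 0.442 to 0.508 within groups and at 0.405 to 0.559 between them, the points sharing the white-light divisor.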
